A study of Rattus norvegicus with 12 samples.

Results

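The milk and serum microRNAs described here are rno-miR-212 and rno-miR-132, 2 of the 388 rat microRNAs (miRNAs) on the arrays. They were chosen by name as neighbours on chromosome 10 whose total signals, detection calls and spot signals over the 4 groups had already been seen. Their levels are therefore given as a description, without a test. The samples came from 3 F344/N rats that were 14 weeks old and pregnant when obtained. They were serum taken on day 21 postpartum, at weaning, colostrum whey of day 2, and mature milk whey of days 9 and 16. No group had a genetic change, and the methods name oxytocin as given before each milking. Each of the 12 samples (n = 3 a group) was hybridised with 1 dye to 1 array, with 70 ng of total RNA on each. Serum was taken on 1 day only, so the body fluid and the day of sampling cannot be told apart in any comparison with serum.

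miRNAs are short RNAs that guide the silencing machinery to messenger RNAs, mainly by pairing through the seed, bases 2 to 8 from their 5′ end. miR-212 and miR-132 are cut from a single primary transcript and share a seed, so that the same target sites are predicted for both. In rat neurons their transcript is induced by the transcription factor CREB after activity or neurotrophin signals, and in mice the cluster has been studied in the growth of the mammary ducts. Whey is the clear fluid left when fat, cells and casein are removed from milk, and part of its miRNA is carried in vesicles.

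The mature sequences are shown because the 2 miRNAs differ in detection while their 5′ portions are the same. Both are RefSeq entries on GRCr8, on the plus strand of chr10:60521811-60521832 for miR-212 and chr10:60522091-60522112 for miR-132, with the seed in capitals.
rno-miR-212-3p: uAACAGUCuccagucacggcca
rno-miR-132-3p: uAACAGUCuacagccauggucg
The 2 sequences were equal at 17 of 22 positions, counted from the 5′ end, and the first 9 were all equal. No other miRNA among the 327 of the array that matched a RefSeq mature sequence had the seed AACAGUC. The 5′ ends lay 280 bases apart on GRCr8. Both hairpins lie between the genes Hic1 and Ovca2, and Hic1 ends 3927 bases before the Mir212 hairpin. RefSeq places a long non-coding RNA gene, LOC120095261, 8 bases beyond the Mir132 hairpin. The Mir132 hairpin (chr10:60522033-60522133) is shown to place the measured arm, in capitals, within its precursor.
Mir132: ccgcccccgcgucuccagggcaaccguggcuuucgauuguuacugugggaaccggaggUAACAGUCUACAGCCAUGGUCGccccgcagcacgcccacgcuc

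Each miRNA was read by 2 probes of different length, with 10 spots a probe. The probe sequences are shown because the results below depend on which of them gave signal. They are those of the array design.
miR-212, 14 bases: tggccgtgactgga
miR-212, 13 bases: tggccgtgactgg
miR-132, 16 bases: cgaccatggctgtaga
miR-132, 15 bases: cgaccatggctgtag
The probes pair with the 3′ portion of the miRNA. Those for miR-212 covered positions 9 to 22 and 10 to 22, and those for miR-132 covered positions 7 to 22 and 8 to 22. All 5 positions at which the miRNAs differ fell inside the 14 bases bound by the longer miR-212 probe. On the rn4 genome the array design places the miR-212 probes at chr10:62480514-62480526 and chr10:62480515-62480526, and the miR-132 probes at chr10:62480792-62480806 and chr10:62480793-62480806. These coordinates span 1 base less than the probe, as did those of all 965 probes with 1 place in the genome.

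miR-212 was one of the brightest miRNAs of colostrum whey and was far dimmer in every other group, whereas miR-132 was detected only in serum, at signals below the background limit. The total signal of miR-212, a background-subtracted intensity in arbitrary units summed over its probes, was 190.5, 163.2 and 143.2 in the serum of rats 1, 2 and 3. It was 432.8, 491.2 and 548.5 in d 2 whey, 17.0, 81.5 and 3.64 in d 9 whey, and 61.7, 119.5 and 19.1 in d 16 whey. Every d 2 array was above every other array, every serum array was above every mature milk array, and the arrays of days 9 and 16 overlapped. The scanner software called miR-212 detected on 11 of 12 arrays, the exception being d 9 whey of rat 3. The background limit of an array was its dimmest miRNA for which a share of 0.5 or more of the spots stood well above background, and this was 11.9 to 23.9 over the 12 arrays. Against it, d 9 whey of rat 3 and d 16 whey of rat 3 lay below the limit of their own array, and d 9 whey of rat 1 (17.0, limit 15.7) lay just above it.

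**Figure D1:**
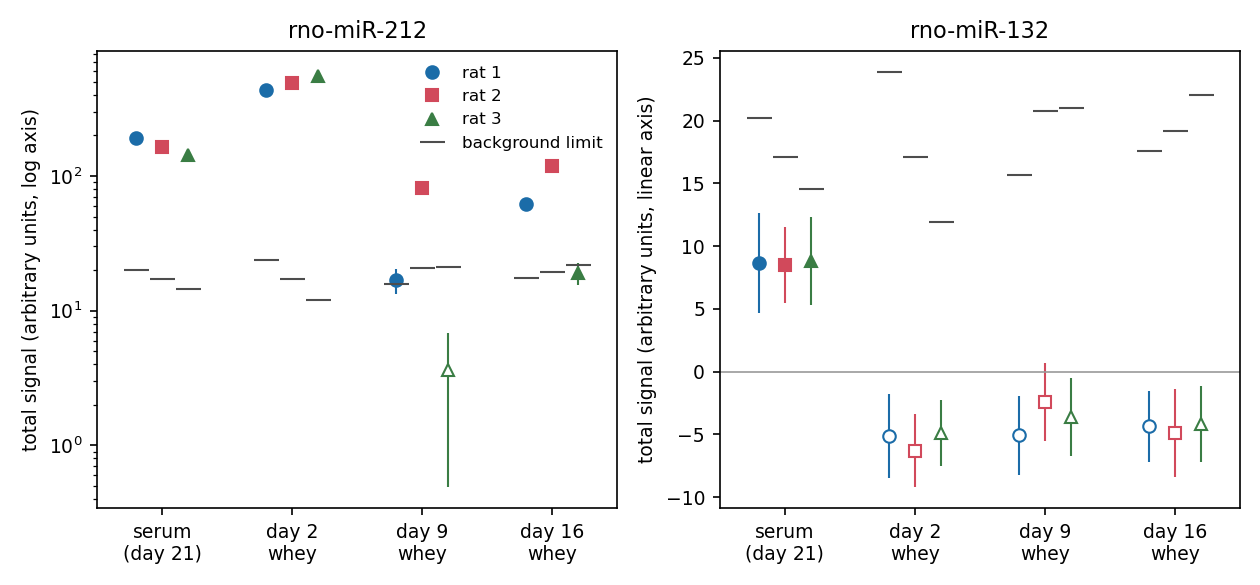
Total signal of rno-miR-212 (left, log axis) and rno-miR-132 (right, linear axis) on each of the 12 arrays in arbitrary units, with error bars for the error the scanner software gives to each signal, open symbols for arrays without a detection call and grey dashes for the background limit of each array. miR-212 was highest on the 3 d 2 arrays, at 432.8 to 548.5, while the 3 serum signals of miR-132 lay between 8.50 and 8.80, under the limit, and its 9 whey signals were below 0.

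The signal of miR-132 was 8.65, 8.50 and 8.80 in the serum of rats 1, 2 and 3, with errors of 4.02, 3.01 and 3.52 from the scanner software. It was below 0 on all 9 whey arrays, between -6.31 and -2.40. The serum and whey signals did not overlap, but each serum signal lay below the background limit of its own array (20.2, 17.1 and 14.6). No fold between serum and whey is given, because neither side was above that limit. Detection of miR-132 on all 3 serum arrays and on no whey array was shared with 13 other miRNAs. By mean serum level miR-132 was the fourth from the dimmest of these 14, and 4 of the 14 were below the background limit on every serum array. The brightest was miR-122, the abundant miRNA of hepatocytes, at 10.17 ± 0.39 on the log2 scale (SD, n = 3).

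The order of the groups was the same after the arrays were put on a common scale. The summed signal of an array was 90002 to 161389 in serum, against 22491 to 26246 in d 2 whey, 70752 to 106976 in d 9 whey and 76845 to 120359 in d 16 whey. Thus miR-212 was brightest on the arrays with the least total signal. Its share of the summed signal was 0.118% to 0.159% in serum, 1.92% to 2.09% in d 2 whey, 0.00514% to 0.0762% in d 9 whey and 0.0184% to 0.0993% in d 16 whey. Among the 388 miRNAs it ranked 69, 70 and 60 in serum, 10, 10 and 9 in d 2 whey, 103, 65 and 152 in d 9 whey, and 59, 62 and 108 in d 16 whey, for rats 1, 2 and 3. After quantile normalization over the 12 arrays its log2 level was 6.40 ± 0.25 in serum, 10.91 ± 0.07 in d 2 whey, 4.45 ± 2.11 in d 9 whey and 5.89 ± 1.32 in d 16 whey (SD, n = 3 each). The means of serum and d 16 whey, neighbours in this order, and those of days 16 and 9 differed by less than the larger of their SDs. The day 2 level stood above the others by more than any of these SDs. The same order of the 4 group means was found for 5 of the 188 miRNAs that were detected on at least 1 array, miR-212 among them, and 46 of the 188 had their highest mean in d 2 whey.

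**Figure D2:**
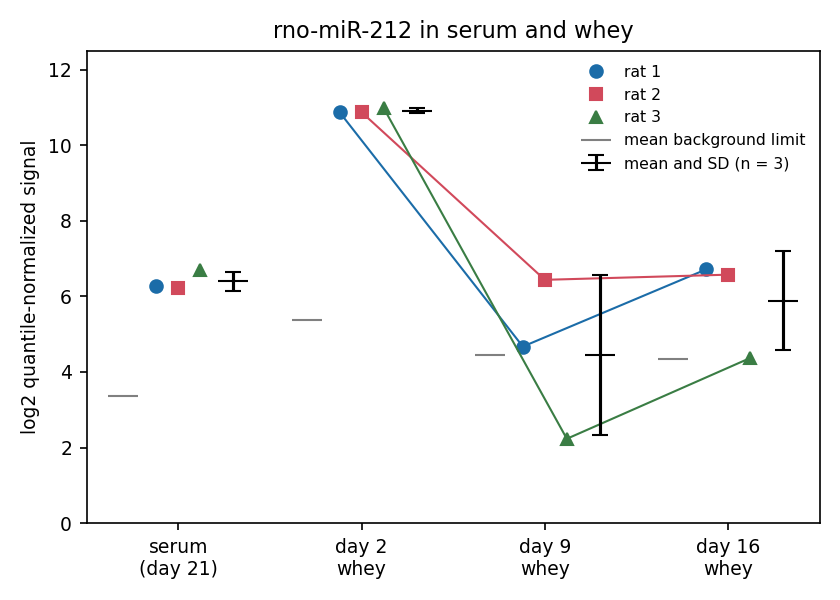
Log2 quantile-normalized signal of rno-miR-212 in serum and in whey of days 2, 9 and 16, with a symbol for each rat, lines joining the whey samples of a rat, black bars for the mean and SD of 3 rats and grey dashes for the mean background limit of the group. The day 2 samples lay together at 10.91 ± 0.07, and the day 9 samples were spread over 4.45 ± 2.11.

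Between d 9 and d 2 whey, whose arrays shared a slide, miR-212 was lower in each of the 3 rats. Its log2 level was 4.67, 6.44 and 2.23 in d 9 whey and 10.87, 10.87 and 10.99 in d 2 whey of rats 1, 2 and 3. The mean difference was -6.46 (SD 2.17 over rats), the second lowest of the 188 miRNAs. With values under an array's background limit raised to that limit, it was -5.70. On the signals as deposited, without normalization, d 9 whey was 25.5-fold lower in rat 1 and 6.03-fold lower in rat 2. In rat 3, where d 9 whey was not detected, it was at least 26.2-fold lower, taking the limit of that array in place of the signal. The ratio of the group means was 14.4-fold. The size thus differed with the scaling, and the direction was the same in all 3 rats on either scale.

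Between d 16 and d 2 whey the mean log2 difference was -5.03 (SD 1.38), the fifth lowest of the 188. With values under the background limit raised to it, the difference was -4.99. On the mean deposited signals d 16 whey was 7.35-fold lower. The arrays of days 2 and 16 lay on different slides, so slide and day cannot be told apart here. Between days 16 and 9, also on different slides, the difference was 1.44 (SD 1.13), with values of 2.04, 0.14 and 2.14 in rats 1, 2 and 3. Day 16 was the higher in each rat, but the groups overlapped. In rat 3 both values lay under the background limits of their arrays, so its direction is not settled. With values under the limit raised to it, the mean difference was 0.71.

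Serum was lower than d 2 whey by a log2 difference of -4.51 (SD 0.18), which is 22.8-fold, and by 2.96-fold on the mean deposited signals. These arrays lay on different slides. Serum and d 16 whey shared a slide, and there the 2 scales differed in what they showed. The deposited signals of serum were above those of d 16 whey in each rat, without overlap between the groups. The ratio was 3.09-fold in rat 1, 1.37-fold in rat 2 and at least 6.50-fold in rat 3, whose d 16 signal lay under the limit of its array. The normalized log2 differences were -0.44, -0.34 and 2.32, with a mean of 0.51 (SD 1.56), and the groups overlapped. Without the d 16 array of rat 3 the mean turned to -0.24.

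The rats ran in the same order on both mature milk days by deposited signal, with rat 2 highest and rat 3 lowest, but not on day 2, when rat 3 was highest. Rat 2 also had the highest summed array signal on both days (106976 on day 9 and 120359 on day 16), and the part of that sum in the order was not tested. On the normalized scale rat 3 was lowest on both days, and rat 1 (6.71) was just above rat 2 (6.58) on day 16. The spread of miR-212 over rats in mature milk was wide, but it rested in part on values at or below background. In d 9 whey rat 3 (2.23, limit 4.53) was not detected and rat 1 (4.67, limit 4.61) lay at the limit of its array, and in d 16 whey rat 3 (4.37, limit 4.47) lay just under it. In d 9 whey its SD of 2.11 was the largest of the 130 miRNAs detected on at least 2 of the 3 arrays, whose median was 0.21. In d 16 whey 2 of 137 miRNAs had a larger SD than its 1.32 (median 0.16). They were miR-223 (1.71), a myeloid miRNA, and miR-206 (1.43), a muscle miRNA, both named here after their values were seen. In d 2 whey, by contrast, 105 of 118 miRNAs had a larger SD than the 0.07 of miR-212, and in serum 83 of 155 had a larger SD than its 0.25. Quantile normalization sets values by rank, and the d 2 ranks of 10, 10 and 9 gave rats 1 and 2 the same value (10.87). The deposited d 2 signals of miR-212 had an SD of 11.8% of their mean.

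**Figure D3:**
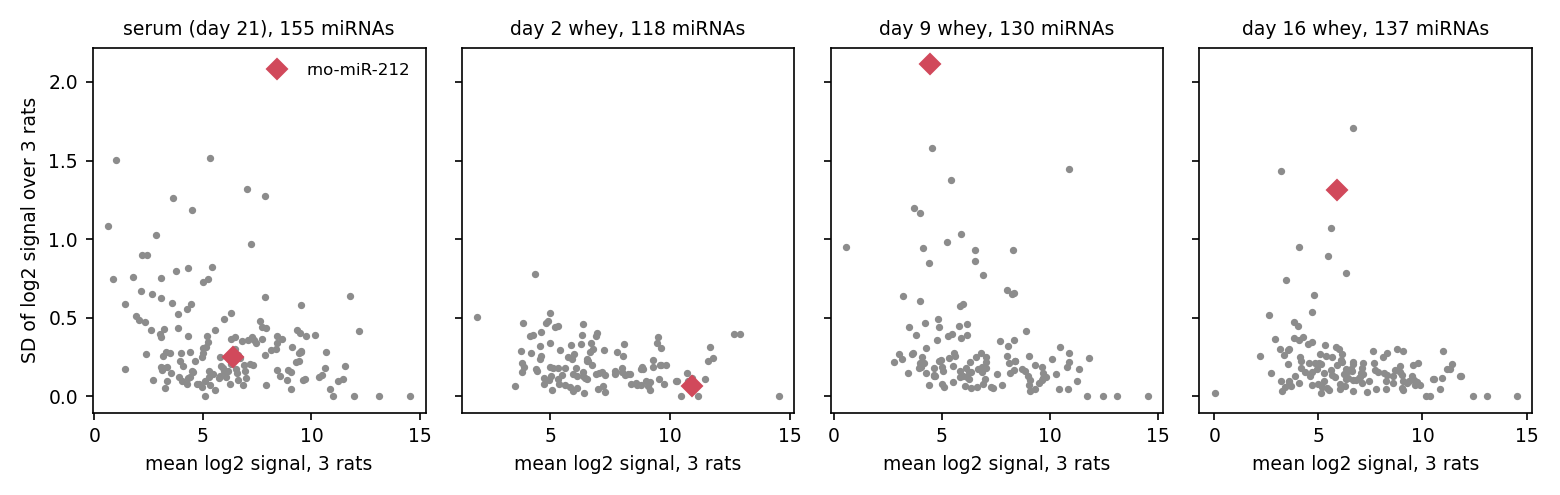
SD over 3 rats against mean log2 normalized signal for the miRNAs detected on at least 2 arrays of serum, d 2, d 9 and d 16 whey, with rno-miR-212 as a red diamond and every other miRNA as a grey point. miR-212 had the largest SD in d 9 whey (2.11) and the third largest in d 16 whey (1.32), with values at or below background among them, and a small one in d 2 whey (0.07).

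Some other miRNAs of d 9 whey had the same order of rats by deposited signal. They were looked up after the spread of miR-212 had been seen, among the miRNAs with the largest SD there. The summed array signal of d 9 whey ran in that order too, at 90179, 106976 and 70752 in rats 1, 2 and 3. Its part in the order of these miRNAs was not tested. miR-143, a miRNA of smooth muscle and connective tissue cells, had total signals of 2251, 4987 and 558 in d 9 whey of rats 1, 2 and 3. miR-133b, a muscle miRNA, had 25.6, 43.0 and 5.50. The order was also that of miR-327 (27.4, 97.1 and 12.4) and miR-292-5p (7.72, 32.8 and 5.07), the next by SD. In rat 3 all of these but miR-143 lay under the limit of the array (21.0). miR-133a, another muscle miRNA, was not detected in d 9 whey. Its signals there of 3.09, 2.85 and 1.13 lay under the array limits (15.7, 20.8 and 21.0), so its order is not settled. In d 16 whey miR-206 had 1.82, 19.8 and 15.3, with rat 2 highest. Its values in rats 1 and 3 lay under the limits of their arrays (17.6 and 22.0). None of the marker lists had the full order of miR-212 on either mature milk day. The lists of epithelial, stimulus-induced and neuron-enriched miRNAs shared its highest rat, rat 2, on both days, but were lowest in rat 1. The epithelial sums were 5560, 7202 and 7198 in d 9 whey of rats 1, 2 and 3, and 6446, 11756 and 8490 in d 16 whey. The 7 blood cell markers summed to 36.5, 59.9 and 89.1 in d 9 whey and to 29.7, 620.9 and 62.4 in d 16 whey of rats 1, 2 and 3, so that rat 3 was highest on day 9 and rat 2 on day 16. miR-223 made up most of the high d 16 value, with a signal of 588 in rat 2 against 23.9 and 47.0 in rats 1 and 3.

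Both miR-212 probes showed the drop after day 2, whereas the serum signal of miR-132 came from the longer of its probes alone. The 14-base probe of miR-212 had a mean spot signal of 186 ± 20.7 in serum, 619 ± 72.7 in d 2 whey, 40.2 ± 45.7 in d 9 whey and 83.8 ± 62.3 in d 16 whey (SD of 3 arrays, 10 spots each less those the scanner software flagged as outliers). The 13-base probe had 61.6 ± 13.3, 120 ± 16.0, 10.5 ± 15.9 and 16.8 ± 13.8 in the same order of groups. By the 14-base and 13-base probes d 9 whey was 15.4-fold and 11.5-fold lower than d 2 whey, and d 16 whey was 7.39-fold and 7.15-fold lower. For serum the probes disagreed more in size, with 3.32-fold and 1.95-fold lower than d 2 whey. Within an array, the longer over the shorter probe was 2.83, 2.85 and 3.57 in serum and 5.39, 4.81 and 5.29 in d 2 whey. These ratios did not overlap, so the 2 probes changed unequally between serum and d 2 whey. In d 9 whey of rat 3 the 13-base probe averaged -0.83 and none of the 20 spots of miR-212 was well above background. No spot of either miRNA was saturated.

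**Figure D4:**
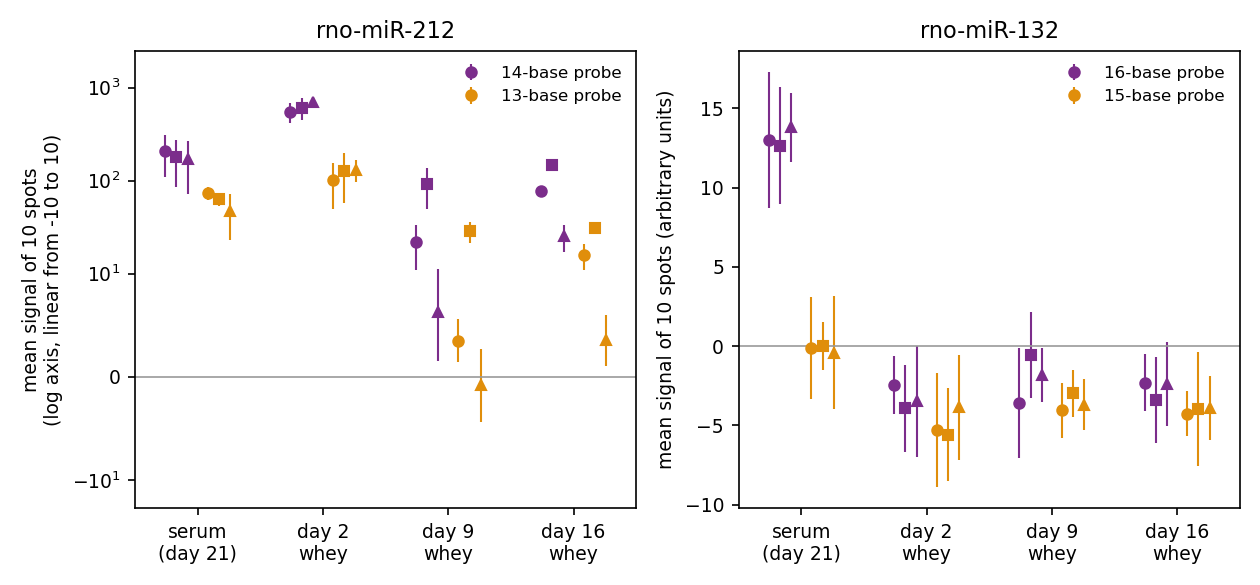
Mean signal of the 10 spots of each probe on each array (circle, square and triangle for rats 1, 2 and 3, bars for the SD over spots) for rno-miR-212 (left, log axis that is linear from -10 to 10) and rno-miR-132 (right, linear axis), in purple for the longer and orange for the shorter probe. Both miR-212 probes were highest in d 2 whey, and the 16-base miR-132 probe was above 0 in serum (13.0, 12.6 and 13.8) where the 15-base probe was near 0.

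For miR-132, the 16-base probe averaged 13.0, 12.6 and 13.8 per spot in the serum of rats 1, 2 and 3, and 3 of its 30 serum spots were well above background. The 15-base probe, which lacks 1 base of the longer one, averaged -0.14, 0.01 and -0.42 on the same arrays, and none of its spots was well above background. In whey both probes averaged below 0 on every array. The detection call in serum thus rested on spots of 1 probe, few of which stood above the background by themselves.

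In d 2 whey miR-212 was detected on all 3 arrays and its neighbour miR-132 on none, and other neighbouring miRNAs also differed in this way. The array held 87 pairs of tested miRNAs that lie within 10 kb of each other on either strand. In 35 of them (40.2%) there was a group in which 1 miRNA was detected on all 3 arrays and the other on none. The share was 40.3% (25 of 62) for pairs within 1 kb. Such pairs included let-7a and let-7f with let-7d* on chromosome 17 and miR-19b with miR-20b-5p and miR-363 on chromosome X, and also miR-92a with miR-20b-5p. miR-19b, miR-92a, let-7a and let-7f are also made from other places in the genome, which the probes do not tell apart. let-7d* comes from the other arm of the let-7d hairpin. The shares include pairs with such miRNAs and were not counted without them. The log2 normalized levels of miR-212 and miR-132 had an r of -0.10 (Spearman's rho -0.10) over 12 arrays that share 3 rats and 4 groups. miR-132 was at the floor on all 9 whey arrays and below the background limit in serum, so this r sets serum against whey and does not describe joint variation.

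The miRNAs whose pattern was most like that of miR-212, by r over 12 arrays among the 168 miRNAs detected on at least 3 arrays, were miR-188 (r = 0.93), miR-378 (0.91), miR-125b-3p (0.87), miR-133a (0.86) and miR-341 (0.85). On the normalized scale all 5 had their highest mean in d 2 whey, but over different ranges. The d 2 means of miR-378 (4.75) and miR-133a (3.80) lay under the mean limit of 5.37. By deposited signal miR-188 was higher in serum than in d 2 whey. It was 105.1, 86.6 and 72.4 in serum of rats 1, 2 and 3, against 30.1, 34.8 and 33.5. miR-378 was too, at 26.7, 29.6 and 19.0 against 9.89, 13.2 and 12.9. miR-125b-3p and miR-341 were higher in d 2 whey in each rat, and miR-133a in rat 3 only. miR-188 had log2 levels of 5.48 ± 0.14 in serum, 6.41 ± 0.02 in d 2 whey, 4.99 ± 0.08 in d 9 whey and 5.11 ± 0.02 in d 16 whey (SD, n = 3 each), a far narrower span than that of miR-212. miR-125b-3p, from the other arm of a miR-125b hairpin, had 1.01 ± 1.50 in serum and 6.77 ± 0.30 in d 2 whey and was detected on no mature milk array. miR-341 had 3.23 ± 0.43 in serum and 6.08 ± 0.18 in d 2 whey and was likewise detected on no mature milk array. With Spearman's rho 3 of these 5 stayed among the first 5, and with scaling to the 75th percentile 2 did. Of the 188 miRNAs, 21 were detected on all serum and d 2 arrays and had higher means in both than on either mature milk day, among them miR-212 itself and, named after their values were seen, miR-19a, miR-19b, miR-290 and miR-877.

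For miR-132 the most alike were miR-150 (r = 0.99), miR-215 (0.99), miR-23a (0.98), miR-126 (0.98) and miR-674-3p (0.98). miR-150, a lymphocyte miRNA, averaged 7.86 ± 0.63 in serum, and miR-126, an endothelial miRNA also found in platelets, 5.99 ± 0.49. Neither was detected on any whey array. miR-23a was detected on all 12 arrays, at 11.46 ± 0.11 in serum and 9.02 ± 0.14 in d 16 whey. These values of r describe a contrast of serum with whey in which miR-132 was at the floor on all 9 whey arrays. With Spearman's rho 2 of the 5 stayed among the first 5, and with scaling to the 75th percentile all 5 did.

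Lists of other miRNAs, by known biology, were read against all miRNAs tested. Of 188 miRNAs tested with limma (Benjamini-Hochberg adjusted p under 0.05), 53 were higher (28.2%) and 32 lower (17%) in d 9 than in d 2 whey. In d 16 whey 61 were higher (32.4%) and 43 lower (22.9%) than in d 2 whey, and 14 (7.45%) differed between days 16 and 9 in either direction. In serum 68 were higher (36.2%) and 73 lower (38.8%) than in d 16 whey, and 75 higher (39.9%) and 81 lower (43.1%) than in d 2 whey. Without normalization the split was 93 higher and 12 lower for d 9 against d 2 whey, 104 and 15 for d 16 against d 2 whey, 86 and 47 for serum against d 16 whey, and 117 and 25 for serum against d 2 whey. The medians over the 188 were then 1.13, 1.28, 0.90 and 1.85, in place of 0.08, 0.13, 0.11 and -0.19. With each array scaled to its 75th percentile over miRNAs that all arrays detected, it was 81 and 58 for serum against d 16 whey. With values under the background limit raised to it, the balance turned to 18 higher and 22 lower for d 9 against d 2 whey, and to 24 and 97 for d 16 against d 2 whey. It was then 48 and 105 for serum against d 16 whey, and 42 and 121 for serum against d 2 whey. The mean log2 limit was 5.37 in d 2 whey, 4.46 in d 9 whey, 4.36 in d 16 whey and 3.36 in serum. A miRNA under the limit in both groups of a comparison thus took its difference from the limits alone, and this floor by itself adds lower calls. The medians over the 188 were then -0.73, -0.78, -0.86 and -1.53 for these 4 comparisons in turn.

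Of 5 miRNAs listed as induced by stimulus or inflammation, 4 were tested, and 3 were higher and 0 lower in d 9 than in d 2 whey (median difference 0.49, against 0.08 over all tested). All 4 were higher in d 16 than in d 2 whey (median 0.78, against 0.13). They were miR-21, miR-22, miR-146a and miR-146b. miR-146b, a relative of the NF-kappaB-induced miR-146a, had log2 levels of 6.49 ± 0.30 in serum, 8.23 ± 0.14 in d 2 whey, 8.35 ± 0.36 in d 9 whey and 9.24 ± 0.08 in d 16 whey. miR-21 had 9.62 ± 0.10, 10.43 on each array, 10.86 ± 0.21 and 11.00 ± 0.29 in the same groups. In serum 1 of the 4 was higher and 2 were lower than in d 16 whey. Against d 2 whey, serum had 2 higher and 2 lower. miR-147 was detected on no array.

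Of 11 neuron-enriched miRNAs only miR-128, miR-218 and miR-219-5p were detected on any array. miR-124 and miR-9, which define neurons and neural progenitors, were at the floor in every group. Of the 3, 1 was higher and 0 lower in d 9 than in d 2 whey, as in d 16 against d 2 whey, and 1 was higher and 1 lower in serum than in d 16 whey. In serum against d 2 whey 2 were higher and 1 lower. miR-128 had 9.53 ± 0.28 in serum, against 5.29 ± 0.15 in d 16 whey. The 11 together made up 0.906% to 1.29% of the signal in serum and 0.0501% to 0.128% on the whey arrays.

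The labelled fluids had the markers of their sources. The 8 epithelial miRNAs, with the miR-200 family, made up 0.149% to 0.365% of the signal in serum and 6.17% to 10.3% in whey, and 7 of 8 were lower and 0 higher in serum than in d 16 whey. Against d 2 whey 7 were lower and 1 was higher in serum (median -5.41, against -0.19 over all tested). The 7 blood cell miRNAs made up 20.2% to 22.9% in serum and 0.0386% to 0.516% in whey, and of the 6 tested 5 were higher in serum than in d 16 whey and 6 than in d 2 whey. Most of the serum sum was miR-451 and miR-223, with signals of 27728 and 8760 of 37021 in rat 1. miR-144 of erythroid cells was detected on no array, and miR-122 of liver only in serum, where it made up 1.14% to 2.02%. In such fluids fewer source cells or vesicles and less miRNA in each cannot be told apart.

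GC content moved with the calls between days and was highest in the lower class. The GC content of miR-212 was 54.5% and that of miR-132 50%, against a median of 47.6% over the 162 tested miRNAs with a RefSeq sequence, of which 30 were above miR-212 and 48 above miR-132. The 29 of them lower in d 9 than in d 2 whey had a median of 52.4% and the 43 higher ones 45.5%. For d 16 against d 2 whey the medians were 51.1% (38 lower) and 45.5% (51 higher). The part of GC content in the drop of miR-212 was not tested.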

How the data were processed

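Total RNA from the whey and serum of 3 rats was measured on 12 rat miRNA arrays. The authors labelled the RNA with Cy3, scanned the arrays and read the images with Agilent Feature Extraction 9.5.3.1, per the labels. The deposited intensity of each spot, and its total per miRNA, is background-subtracted and was not normalized between arrays. The deposited detection calls (other) and well-above-background calls were used as given. The deposited value table held the same spot intensity (all 8475 spots within 1% on each array) and was not used. The authors' quantile-normalized table was not used either, since its 12 columns carry no sample names.

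Following the study's methods, total intensities underwent quantile normalization across all 12 arrays, values under 1 were raised to 1, and log2 was taken. Group means of the 188 miRNAs with a detection call on 1 array or more were fitted with limma (version 3.58.1, R 4.3.3). miRNAs at the floor on all arrays of a group have no spread there. Further steps used pandas 2.3.3, scipy 1.17.1, numpy 2.4.6 and matplotlib 3.10.9 under Python 3.11.15. On simulated data for the day 9 against day 2 comparison (188 miRNAs), 49 of 60 changed miRNAs were recovered, with 1 false call. The simulation had normal noise with the fitted SD of each miRNA, upward changes only, and no floor or normalization. It therefore checks the code and gives no error rate for the real arrays.

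The replicate number is the rat, per the labels, so same-numbered samples came from the same animal. After group means were removed, samples of 1 rat from different groups correlated at -0.07 to 0.43 (18 pairs, median 0.04), and samples of different rats had a median of -0.03 over 36 pairs. The arrays of days 2 and 9 lay on 1 slide and those of day 16 and serum on another.

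The members and lists were chosen with earlier results of these data known. The text names both members, the 5 miRNAs most like each, up to 5 other neighbour pairs that differ in detection and up to 3 examples per list. A few more were named after their values were seen, as the text says. Precision is limited by 3 arrays a group. The alternatives tried were other scalings, floors, background correction and filters, each array left out in turn, and the rat as a block.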

Additional observations from a re-analysis of the deposited data

How the results depend on the processing

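Of 81 alternatives other than leaving out an array, 67 kept both the direction and the size or count within the limits used, and 1 reversed a direction. The limit was the SD over rats for a difference and 1.5 times for a count, so a difference with a wide SD could shift far and still be kept. For day 16 against day 9, miR-212 went from 1.44 (SD 1.13) to 0.31 with normexp. For serum against day 16 it went from 0.51 (SD 1.56) to 1.66 without normalization. Both were counted as kept. The difference of miR-212 was -4.06 with normexp background correction for day 9 against day 2, and -3.23 without normalization for day 16 against day 2. For serum against day 2 it was -3.32 and -3.58 with the 75th percentile over miRNAs that all arrays detected and over all miRNAs as the scale, -1.57 without normalization and -3.52 with normexp. Leaving out 1 array gave -7.46 to -5.36 for day 9 against day 2, -5.41 to -4.22 for day 16 against day 2, 0.33 to 2.44 for day 16 against day 9, -4.69 to -4.46 for serum against day 2, and -0.24 to 0.93 for serum against day 16. The lowest of these last was without day 16 of rat 3, and the cause was not tested. The value of miR-132 for serum against day 16 is set by the floor on the whey side and gives no fold. It was 2.33 as computed, 3.11 without normalization, 0.18 with a floor of 5, 0.17 with normexp and -1.0 with the background limit as floor, which replaces both sides by limits. The count of miRNAs called for day 9 against day 2 was 40 with that floor, in place of 85. For day 16 against day 9 it was 27 with scaling to the 75th percentile of all miRNAs, 22 with a floor of 5 and 0 without normalization (limma, with 19 at an unadjusted p under 0.05), in place of 14. Leaving out 1 array gave 8 (without day 9 of rat 1) to 20. In the paired fit with the rat as replicate block, 85, 101, 16, 156 and 141 were called for day 9 and day 16 against day 2, for day 16 against day 9, and for serum against day 2 and against day 16, so the block moved no count by over 1.5 times. Signals near 20 and below are at the background of these arrays, which limits every value of miR-132, the mature milk values of miR-212 in rat 3 and its day 9 value in rat 1.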
